A study of Rattus norvegicus with 18 samples.

Results

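The late transcriptional response of 9L cells to low oxygen was measured by comparing cultures held for 16 h at 0.2% oxygen (hypoxic) with cultures held for the same time at about 20% oxygen (normoxic). The cultures were chosen by their titles, with 3 on each side, and make up 6 of the 18 samples of the series. 9L is an established rat gliosarcoma line, of strain Fisher per the labels, that is used as a glioma model. The cells of both groups came from this single line, were grown in MEM with newborn calf serum, and were detached with trypsin before lysis. The rest of the series holds 6 cultures of the same line kept for 6 h under the same oxygen levels, used here as an earlier time, and 6 laser-captured regions of 9L tumours, used here only in an alternative estimate of the spread. Culture numbers 22, 28 and 29 appear once in each 16 h group, and values are given below in that order. Nothing in the labels states that same-group cultures came from independent experiments, and p-values then reflect only the spread of these samples, part or all of which could be technical. In a bulk culture, a change in the number of cells that express a gene and a change in RNA per cell cannot be told apart. The 16 h titles carry the codes NO and HY and the 6 h titles the code Ag, so time and whatever these codes mark cannot be told apart.

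When oxygen is scarce, the prolyl hydroxylases that mark the alpha subunits of hypoxia-inducible factor (HIF) for destruction by the von Hippel-Lindau protein slow down. The alpha subunits then accumulate as protein, pair with Arnt and bind hypoxia response elements, whose core is ACGTG or GCGTG. Known HIF targets move glucose into glycolysis, hold pyruvate back from mitochondria, remove mitochondria, export acid, call in vessels, cross-link collagen and feed back on oxygen sensing.

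Levels are log2 array signals, so that a difference of 1 is a doubling, and changes are hypoxic minus normoxic differences with the standard error (SE) of a limma fit, with n = 3 cultures per group. A gene is called higher or lower when its Benjamini-Hochberg adjusted p over 27363 probe sets is under 0.05. The precision is limited by the small number of arrays. Values of different genes are array signals of different probes and are not compared as levels.

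After 16 h, 116 of 14324 measured genes were higher (0.81%) and 18 were lower (0.126%). Raised genes were led by known targets of HIF in glucose use, angiogenic signalling, oxidative folding and growth arrest among others. Among called genes the 5 largest falls were of the chemokine Cxcl10, phosphotriesterase-related Pter, cyclin Ccnb1, interferon-induced Ifit3 and purine enzyme Xdh. Of these, Pter and Xdh kept their call whichever array was left out. Of the raised genes 45 were at least 2-fold higher, and of the lowered genes 3 were at least 2-fold lower. The 3 hypoxic cultures lay wholly above or wholly below the 3 normoxic cultures for all 134 called genes. Over all measured genes this held for 7.49% (above) and 9.21% (below). The called genes were chosen by their change in these same cultures, so their separation is a description and not added support. The median change was -0.03 over all genes, 0.88 over the raised and -0.77 over the lowered ones. At the level of probe sets 165 were higher and 28 lower, of which 48 carry no gene symbol or several and stay unnamed. Of the 165 higher probe sets, 120 came from the brightest 25% of probe sets and 0 from the dimmest 25%.

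**Figure D1:**
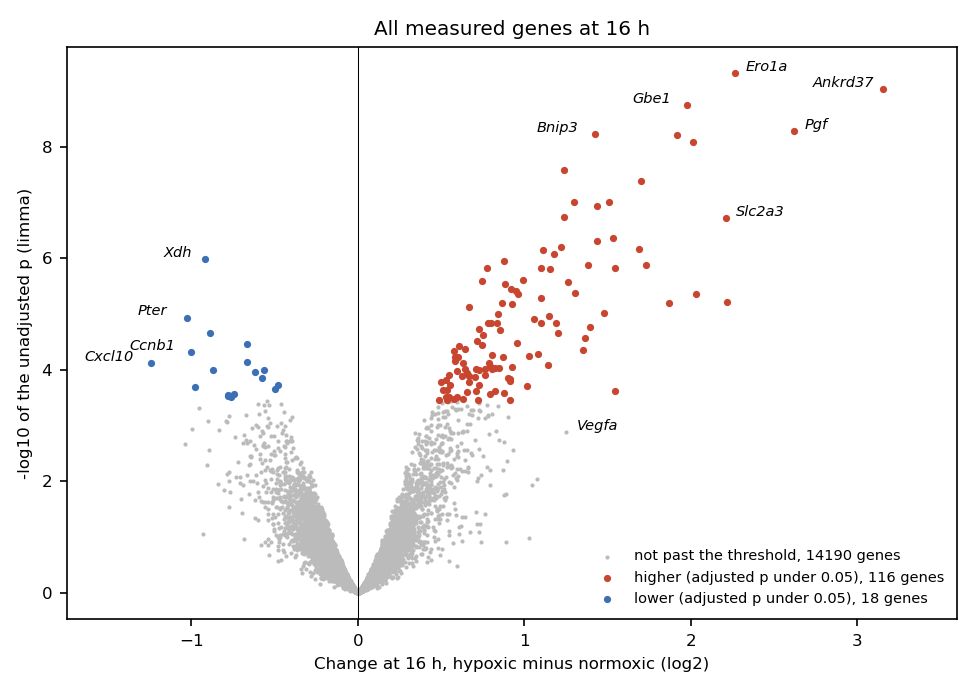
Change at 16 h on the log2 scale (horizontal axis) against -log10 of the unadjusted limma p (vertical axis) for each measured gene, with 116 higher genes in red, 18 lower genes in blue and the rest in grey. Raised genes reach a change of 3.16 (Ankrd37), while the largest fall among called genes is -1.24 (Cxcl10).

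The number of calls depended on single arrays. It was 55 higher and 2 lower genes without the normoxic culture 22, 62 and 3 without the hypoxic culture 22, and 74 and 4 without the normoxic culture 29. Leaving out the normoxic culture 28, the hypoxic culture 28 or the hypoxic culture 29 gave 88 and 17, 110 and 15, and 92 and 25. In all 6 of these fits 50 of the 116 higher genes and 2 of the 18 lower genes (Pter and Xdh) were called. With the culture number as a block, 140 genes were higher and 44 lower (0.307% of genes). The 2 fits shared 109 of the 116 higher and 17 of the 18 lower genes, and Nr2f2 was the lower gene that lost its call (adjusted p = 0.0564 with the block, and 0.0227 to 1.00 over 15 alternatives). A fit of all 18 arrays in 6 groups, tumour regions included, called 25 genes higher and 0 lower. Genes that lost their call in it include Slc2a1 (adjusted p = 0.357), Hk2 (0.151), Bnip3 (0.281), Hmox1 (0.984) and the lowered Xdh (0.566). Among others, Slc2a3 (0.0840), Adm (0.0928), Gpi (0.0952), Abhd18 (0.114), Eno2 (0.151), Plod1 (0.281), Plod2 (0.348) and Bnip3l (0.9999) also lost it.

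The promoter windows of the leading genes show how often the ACGTG form of the HIF core occurs beside the start sites of genes that moved. Windows of 300 bases, from 250 before to 50 after the gene's start, came from RefSeq (build GRCr8). They were searched on both strands for ACGTG and for TTTGAA or TTCGAA, a cell cycle element known from mitosis genes. The GCGTG form of the HIF core and other forms of the cell cycle element were not searched. The 4 shown here are the most raised gene, with several ACGTG matches, the next raised gene, with 0, a lowered interferon gene with 1 match, and the lowered cyclin Ccnb1, with 0 of the searched forms of either motif. Capitals mark the matches of either motif, all of them ACGTG or its reverse complement. Ankrd37 lies at chr16:53001257-53001556 (plus strand), Pgf at chr6:110557698-110557997 (minus strand), Ifit3 at chr1:241527076-241527375 (plus strand) and Ccnb1 at chr2:33655176-33655475 (minus strand), each window written 5′ to 3′ along the gene.
Ankrd37: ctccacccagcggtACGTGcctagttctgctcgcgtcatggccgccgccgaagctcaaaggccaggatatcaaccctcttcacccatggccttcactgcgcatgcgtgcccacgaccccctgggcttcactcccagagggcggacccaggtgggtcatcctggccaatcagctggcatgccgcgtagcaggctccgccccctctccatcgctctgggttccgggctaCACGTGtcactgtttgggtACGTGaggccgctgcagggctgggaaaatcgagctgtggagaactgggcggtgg
Pgf: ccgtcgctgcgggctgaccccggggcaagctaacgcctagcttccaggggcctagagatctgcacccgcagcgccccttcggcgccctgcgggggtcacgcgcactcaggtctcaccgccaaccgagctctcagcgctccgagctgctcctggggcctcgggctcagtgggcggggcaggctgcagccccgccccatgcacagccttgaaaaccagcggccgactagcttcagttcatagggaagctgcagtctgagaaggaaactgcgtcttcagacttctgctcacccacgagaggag
Ifit3: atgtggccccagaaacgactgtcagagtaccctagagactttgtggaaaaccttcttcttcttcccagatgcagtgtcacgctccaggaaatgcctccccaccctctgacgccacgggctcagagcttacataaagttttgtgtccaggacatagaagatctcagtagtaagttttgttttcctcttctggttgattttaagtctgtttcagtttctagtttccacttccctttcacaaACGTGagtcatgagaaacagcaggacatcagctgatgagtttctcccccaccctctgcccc
Ccnb1: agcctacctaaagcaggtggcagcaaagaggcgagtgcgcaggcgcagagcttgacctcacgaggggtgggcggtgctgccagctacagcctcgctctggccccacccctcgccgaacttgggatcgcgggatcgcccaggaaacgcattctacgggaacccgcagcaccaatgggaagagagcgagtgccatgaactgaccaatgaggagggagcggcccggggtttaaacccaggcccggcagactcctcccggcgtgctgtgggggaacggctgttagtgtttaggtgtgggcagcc
Ankrd37 holds 4 matches, 3 on the gene's strand and 1 on the other, and a pair of them overlaps in CACGTG. Among the first 4 raised and first 4 lowered genes with exactly 1 window, the windows of Adm, Ccng2, Cxcl10 and Pter held 0 of the searched forms of either motif, as did those of Pgf and Ccnb1. Windows were matched by symbol to 93 of the 116 raised genes, and 41 of their 103 windows (39.8%) held ACGTG. The share was 22.1% over the windows of all measured genes matched, 19.3% over all 33469 windows of the table, and 3 of 13 (23.1%) for lowered genes. The cell cycle element was in 11.7% of windows of raised genes, 23.1% of those of lowered genes (3 of 13) and 16.8% of those of all measured genes. It was in 19.7% of all windows of the table. A match is a stretch of letters and not a measured binding site. Each window printed above also holds GCGTG or its reverse complement, so 0 matches does not mean that a HIF core is absent.

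Of the genes of oxygen sensing, a HIF target and a feedback hydroxylase were higher, and the HIF alpha subunits did not pass. Ankrd37, a small ankyrin-repeat protein and textbook HIF target, had levels of 7.19, 7.04 and 7.54 in normoxic and 10.44, 10.97 and 9.85 in hypoxic cultures. The 2 groups were far apart, and Ankrd37 was 8.92-fold higher (3.16 ± 0.21 log2 units, adjusted p = 1.27e-05). The prolyl hydroxylase Egln3, which marks HIF for destruction, was at 6.95, 6.5 and 6.89 in normoxia and at 8.21, 8.19 and 8.25 in hypoxia, a rise of 1.44 ± 0.14 (adjusted p = 0.000225). Both genes were called in all 6 fits that left out 1 array, but Egln3 did not pass in the fit of all 18 arrays (adjusted p = 0.453). For its relative Egln1 the 2 probe sets disagreed: the brighter changed by 0.48 ± 0.17 (adjusted p = 0.388) and the other by 1.61 ± 0.19 (adjusted p = 0.000912). Hif1a itself was at 9.54, 9.75 and 9.69 in normoxia and 9.63, 9.93 and 9.71 in hypoxia, so the groups overlapped (0.09 ± 0.12, adjusted p = 0.938). Epas1, which encodes the other main alpha subunit, also overlapped between groups, with a difference of -0.14 ± 0.11 (adjusted p = 0.865). Of the 13 measured genes of the oxygen sensing list, 2 were higher and 0 lower, with a list median of 0.06. For every list here and below, the shares over all measured genes were 0.81% higher and 0.126% lower, with a median of -0.03. The lists were drawn up with earlier results of these data known, so counts of calls and signs are descriptions and not tests.

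**Figure D2:**
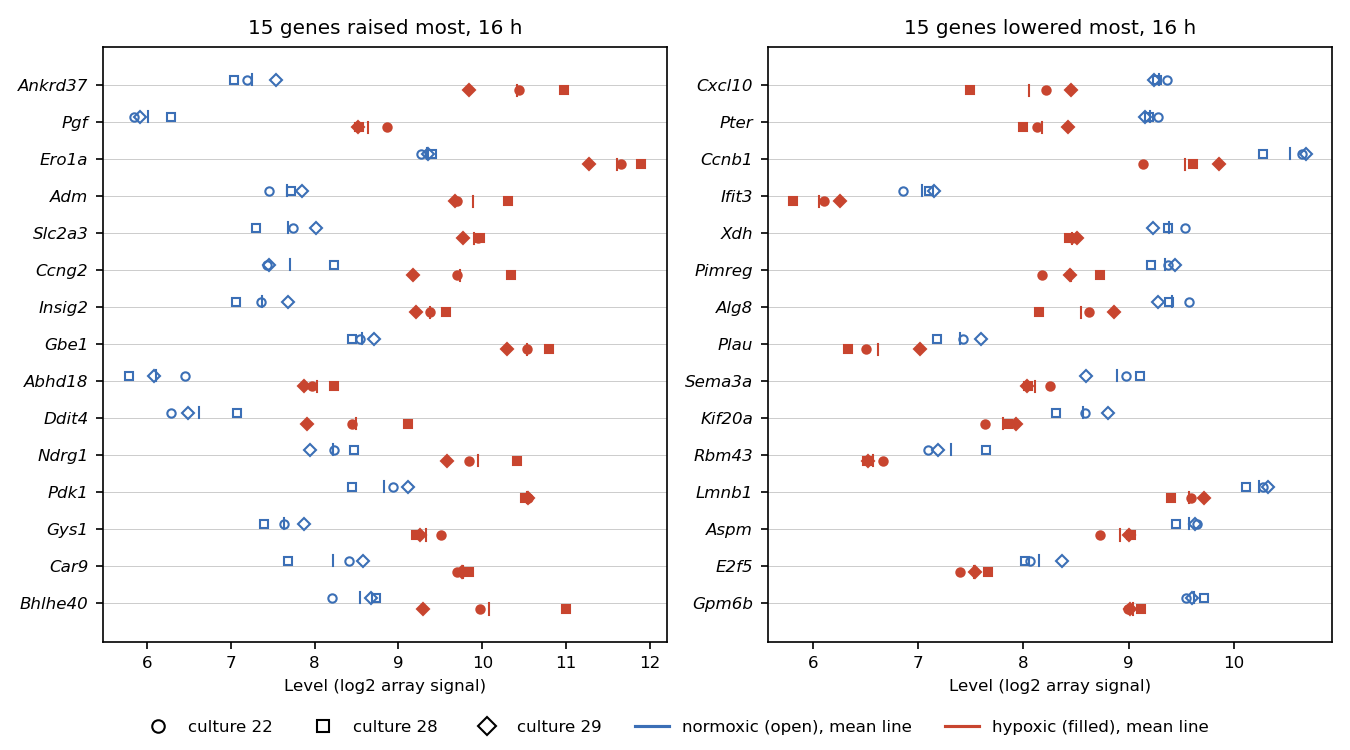
Level in each 16 h culture (log2 array signal, horizontal axis) for the 15 called genes raised most and the 15 called genes lowered most. Open blue symbols mark normoxic and filled red symbols hypoxic cultures, with shapes for culture numbers and short lines for group means. The 2 groups do not overlap for any gene shown, and hypoxic culture 28 is the highest hypoxic culture for Ankrd37 at 10.97.

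Glucose uptake and glycolysis was the list with the highest median. Of its 22 measured genes 8 were higher, against 0.81% of all measured genes, and 0 lower. In this list 21 lay above 0, with a median of 0.63 log2 units against -0.03 over all genes. The high-affinity glucose transporter Slc2a3 was at 7.74, 7.30 and 8.02 in normoxic and 9.95, 9.97 and 9.76 in hypoxic cultures, 4.62-fold higher (2.21 ± 0.23, adjusted p = 0.000331). The widely used transporter Slc2a1 went from 9.19, 8.83 and 9.15 to 10.46, 10.88 and 10.42 (1.53 ± 0.17). Hexokinase 2 (Hk2), which traps glucose in the cell, was at 7.47, 7.34 and 7.66 in normoxia and 8.67, 8.86 and 8.65 in hypoxia (1.24 ± 0.11, adjusted p = 7.13e-05). None of these 3 genes had overlapping groups, and normoxic culture 28 was the lowest culture for each. Further down the pathway, the isomerase Gpi rose by 1.44 ± 0.16, the phosphofructokinases Pfkp by 1.10 ± 0.14 and Pfkl by 0.82 ± 0.17, the aldolase Aldoc by 1.51 ± 0.15 and the enolase Eno2 by 1.26 ± 0.16. Pfkl was the least stable of the 8, with a call in 1 of the 6 fits that left out 1 array, the one without normoxic culture 29 (adjusted p from 0.0335 to 0.144, the highest without hypoxic culture 22). The ubiquitous aldolase Aldoa (0.73 ± 0.16) and triose phosphate isomerase Tpi1 (0.62 ± 0.14) did not pass (adjusted p = 0.0629 and 0.0614) but passed with the culture block (adjusted p = 0.0431 and 0.0302). Over all 15 alternatives their adjusted p ran from 0.0316 to 0.229 and from 0.0269 to 0.917. Phosphoglycerate kinase Pgk1 was at 0.51 ± 0.12 (adjusted p = 0.0727) and the lactate dehydrogenase subunit Ldha at 0.21 ± 0.10 (adjusted p = 0.601), or 0.71 ± 0.24 (adjusted p = 0.337) by its dimmer probe set.

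At the entry of pyruvate into mitochondria 1 kinase rose. Pdk1, which phosphorylates and shuts pyruvate dehydrogenase, was at 8.94, 8.44 and 9.11 in normoxic cultures and at 10.55, 10.50 and 10.55 in hypoxic ones. It was 3.26-fold higher (1.70 ± 0.16, adjusted p = 0.000103). Its relative Pdk3 did not pass, at 0.85 ± 0.22 (adjusted p = 0.129). Of the 11 measured genes of this list 1 was higher and 0 lower, with a median of 0.04. For oxidative phosphorylation and the TCA cycle none of 29 measured genes was called, and their changes ran from -0.17 to 0.18 with a median of -0.04.

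Of 9 measured genes of glycogen metabolism, the storage of glucose, 3 were higher, against 0.81% of all measured genes, and 0 lower. All 9 lay above 0, with a median of 0.15. The branching enzyme Gbe1 was at 8.54, 8.45 and 8.70 in normoxia and 10.53, 10.79 and 10.29 in hypoxia, 3.93-fold higher (1.97 ± 0.14, adjusted p = 1.65e-05). Glycogen synthase (Gys1) was at 7.64, 7.40 and 7.87 in normoxia and 9.51, 9.21 and 9.26 in hypoxia (1.69 ± 0.20, adjusted p = 0.000844). Phosphoglucomutase Pgm1, which links glucose 6-phosphate to glycogen, rose by 1.08 ± 0.19 (adjusted p = 0.0146). Pgm1 lost its call in the fit without the hypoxic culture 22 (adjusted p = 0.0841) and in that without the normoxic culture 28 (0.0577), and its lowest adjusted p among such fits was 0.0315.

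Among genes of mitophagy, the removal of mitochondria, 3 of 9 were higher and 0 lower, with a median of 0.39. Of all measured genes 0.81% were higher. The receptor Bnip3 was at 9.40, 9.57 and 9.65 in normoxia and 10.97, 11.06 and 10.86 in hypoxia (1.42 ± 0.11, adjusted p = 2.40e-05). Its relative Bnip3l rose by 0.75 ± 0.10 (adjusted p = 0.00175). Gabarapl1, an ATG8-family protein of autophagosome membranes, was at 7.83, 8.24 and 8.20 in normoxia and 9.15, 9.53 and 8.67 in hypoxia (1.03 ± 0.18, adjusted p = 0.0157). Gabarapl1 was called in 4 of the 6 fits that left out 1 array, and lost its call without normoxic culture 22 (adjusted p = 0.101) or hypoxic culture 22 (0.0764). Of the acid-handling genes, carbonic anhydrase 9 (Car9), which faces outward and buffers extracellular acid, was at 8.41, 7.68 and 8.58 in normoxic and 9.70, 9.85 and 9.75 in hypoxic cultures. It rose 2.92-fold (1.54 ± 0.19, adjusted p = 0.00118) as the single called gene of 7, with a list median of 0.07.

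Among signals to vessels, placental growth factor (Pgf), a ligand of the receptor Flt1, was at 5.84, 6.29 and 5.92 in normoxic and 8.86, 8.53 and 8.52 in hypoxic cultures. Pgf was 6.15-fold higher (2.62 ± 0.20, adjusted p = 2.40e-05). The vasodilator peptide gene Adm was at 7.46, 7.71 and 7.85 in normoxia and 9.70, 10.30 and 9.67 in hypoxia (2.22 ± 0.31, adjusted p = 0.00334). Heme oxygenase (Hmox1), which makes the vasoactive gas carbon monoxide and is also an NRF2 target, rose by 1.19 ± 0.18 (adjusted p = 0.00601). Vegfa, the main vascular growth factor, was at 7.13, 8.43 and 7.28 in normoxia and 8.77, 9.52 and 8.32 in hypoxia. The normoxic culture 28 lay above the hypoxic culture 29, so the groups overlapped, although each hypoxic culture was above the normoxic culture of its number. At 16 h Vegfa did not pass (1.25 ± 0.31, adjusted p = 0.106), but passed with the culture block (adjusted p = 0.00210) and without normoxic culture 28 (1.66, adjusted p = 0.0111). Its adjusted p ran from 0.00210 to 0.467 over 15 alternatives. In all, 3 of the 17 measured genes of this list were higher and 0 lower, with a median of 0.05.

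Of 12 measured collagen hydroxylases and lysyl oxidases, which modify and cross-link collagen, 6 were higher, against 0.81% of all measured genes, and 0 lower. In this list 3 lay below 0, with a median of 0.43. The prolyl 4-hydroxylase subunit P4ha2 was at 7.72, 7.50 and 8.15 in normoxia and 9.07, 9.41 and 9.02 in hypoxia (1.38 ± 0.17, adjusted p = 0.00115). P4ha1 rose by 0.85 ± 0.13, the lysyl hydroxylases Plod2 by 1.15 ± 0.17 and Plod1 by 0.99 ± 0.13, the lysyl oxidase Loxl2 by 0.92 ± 0.12 and the shared beta subunit P4hb by 0.55 ± 0.11. P4hb was called in none of the 6 fits that left out 1 array (adjusted p from 0.0694 to 0.163), and P4ha1 in 5 (adjusted p = 0.0552 without normoxic culture 22). In the list of extracellular matrix genes and proteases, 1 of 20 was lower and 0 higher. This was Plau, the urokinase that activates plasminogen, at 7.42, 7.17 and 7.60 in normoxia and 6.5, 6.33 and 7.02 in hypoxia (-0.78 ± 0.16, adjusted p = 0.0447). Plau was called in 2 of the 6 fits that left out 1 array, those without normoxic culture 28 or hypoxic culture 29 (adjusted p up to 0.202, without normoxic culture 29).

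Oxygen-dependent histone demethylases and related hydroxylases had a median of 0.42 over 10 measured genes. Of these, 2 were higher, against 0.81% of all measured genes, and 0 lower. Kdm3a, which removes methyl groups from lysine 9 of histone H3, was at 9.00, 8.92 and 9.08 in normoxia and 10.18, 10.34 and 10.20 in hypoxia (1.24 ± 0.13, adjusted p = 0.000331). The hydroxylase Jmjd6 rose by 1.06 ± 0.16 (adjusted p = 0.00550). Jmjd6 did not pass in the limma fit of only the 6 arrays of 16 h (0.0532) or of all 18 arrays (0.0854). Kdm5b, a lysine 4 demethylase, had a difference of 0.69 ± 0.16 (adjusted p = 0.0698, or 0.0203 with the culture block, in a range of 0.0203 to 0.293 over the alternatives).

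Of 15 measured genes that slow growth, 6 were higher and 0 lower, with a median of 0.60. The median was 0.33 without hypoxic culture 28. Over all measured genes 0.81% were higher and 0.126% lower. All lists were chosen with earlier results of these data known, so their counts are descriptions and not tests. The atypical cyclin Ccng2, found in arrested cells, was at 7.43, 8.24 and 7.45 in normoxia and 9.70, 10.34 and 9.18 in hypoxia, 4.09-fold higher (2.03 ± 0.28, adjusted p = 0.00259). The mTORC1 inhibitor Ddit4 was at 6.29, 7.08 and 6.49 in normoxia and 8.44, 9.11 and 7.91 in hypoxia (1.87 ± 0.26, adjusted p = 0.00345). For both genes culture 28 was the highest culture within each group. The stress-induced gene Ndrg1 rose by 1.73 ± 0.21, the Myc antagonist Mxi1 by 1.30 ± 0.18 and the transcriptional repressors Bhlhe41 by 1.36 ± 0.22 and Bhlhe40 by 1.54 ± 0.31. Bhlhe40 (adjusted p = 0.0401) was at 8.21, 8.74 and 8.67 in normoxia and 9.97, 10.99 and 9.29 in hypoxia, and was called in 2 of the 6 fits that left out 1 array, those without hypoxic culture 28 or 29 (adjusted p from 0.00392 to 0.208, the highest without normoxic culture 22). Bhlhe41 lost its call in 1 of these fits (adjusted p = 0.0709 without normoxic culture 22). The kinase inhibitor Cdkn1a was at 0.74 ± 0.24 (adjusted p = 0.291). Txnip, a brake on glucose uptake, was far lower in 1 culture, at 7.48, 9.07 and 8.05 in normoxia and 8.07, 5.77 and 7.97 in hypoxia (-0.93 ± 0.51, adjusted p = 0.710).

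In the unfolded protein and integrated stress response, 1 of 24 measured genes was higher. Ero1a, the oxidase that drives disulfide formation in the endoplasmic reticulum and a known HIF target, was at 9.27, 9.40 and 9.36 in normoxic and 11.65, 11.90 and 11.27 in hypoxic cultures. It was 4.82-fold higher (2.27 ± 0.15, adjusted p = 1.27e-05) and called in all 6 fits that left out 1 array. The other members had smaller changes, with a list median of 0.28, or 0.14 without hypoxic culture 28. The stress transcription factor Ddit3 was at 0.78 ± 0.18 (adjusted p = 0.0721) and Herpud1, a factor of endoplasmic reticulum degradation, at 0.59 ± 0.17 (adjusted p = 0.174). Both Ddit3 and Herpud1 passed with the culture block (adjusted p = 0.00441 and 0.0276), and over 15 alternatives their adjusted p reached 0.984 and 0.577. Among immediate early genes, 1 of 14 was higher, the stress-induced Ier3 at 1.01 ± 0.20 (adjusted p = 0.0348). Ier3 was at 8.11, 8.32 and 8.30 in normoxia and at 9.76, 8.71 and 9.30 in hypoxia. It was called in 1 of the 6 fits that left out 1 array, the one without hypoxic culture 28, with an adjusted p up to 0.177 (without normoxic culture 22). The AP-1 gene Fosl1 was at 0.78 ± 0.18 (adjusted p = 0.0698, or 0.0253 with the culture block, in a range of 0.0253 to 0.289). In the list of NRF2 targets and iron genes Hmox1 alone of 15 was called.

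**Figure D3:**
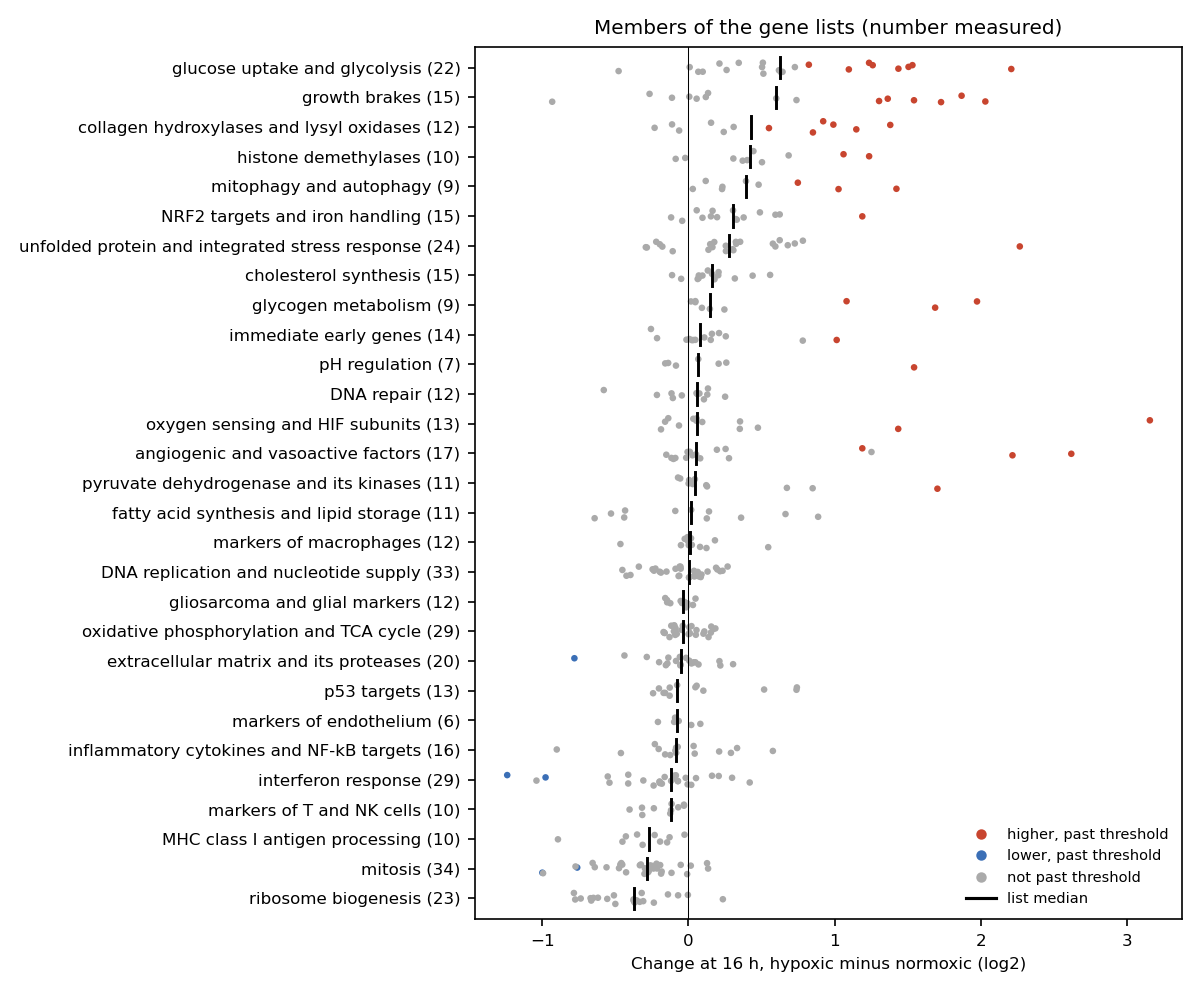
Change at 16 h on the log2 scale for each measured member of the 29 gene lists (points), with red for called higher, blue for called lower, grey for the rest and a black bar for the list median. Glucose uptake and glycolysis has the highest median (0.63) and ribosome biogenesis the lowest (-0.37).

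Of the 116 raised genes, 37 are in the gene lists and 79 are outside them. Among the latter, 2 are in the 15 with the largest changes. Insig2, which holds back sterol synthesis in the endoplasmic reticulum, was at 7.36, 7.06 and 7.69 in normoxia and 9.37, 9.56 and 9.21 in hypoxia (2.01 ± 0.16, adjusted p = 2.84e-05). Its relative Insig1 was at 0.56 ± 0.19 and did not pass (adjusted p = 0.337). Abhd18, a protein of the alpha/beta hydrolase family, was at 6.45, 5.78 and 6.09 in normoxia and 7.97, 8.23 and 7.87 in hypoxia (1.92 ± 0.15, adjusted p = 2.40e-05). Other genes outside the lists were chosen after their values were seen and have varied roles. The mitochondrial adenylate kinase Ak4 rose by 1.48 ± 0.22, the inner membrane protein Higd1a by 1.16 ± 0.14, the mitochondrial NAD kinase Nadk2 by 1.11 ± 0.13 and the mitochondrial protein Fam162a by 0.88 ± 0.12. Cytidine deaminase (Cda) rose by 1.35 ± 0.23 and sepiapterin reductase (Spr), of tetrahydrobiopterin synthesis, by 1.30 ± 0.13. The AMPK subunit Prkab2 rose by 1.39 ± 0.21, the urocortin gene Ucn2 by 1.2 ± 0.19 and Bsg, the chaperone of lactate transporters, by 0.83 ± 0.15. Bsg was called in 1 of the 6 fits that left out 1 array, that without hypoxic culture 29 (adjusted p up to 0.104, without normoxic culture 29). Cda was called in 4, losing its call without normoxic culture 22 (0.0552) or 28 (0.0588), and Prkab2 in 5 (0.0552 without normoxic culture 22).

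Most mitosis genes lay below 0 but few passed. Of 34 measured mitosis genes 31 lay below 0, 2 were called lower and 0 higher. The list median was -0.28, or -0.25 with each array centred on its median. Over all genes the median change was -0.03. Members of a list were read on the same arrays, so counts of signs here and below are descriptions and not tests. Cyclin B1 (Ccnb1), the partner of Cdk1 at entry into mitosis, was at 10.65, 10.28 and 10.69 in normoxic and 9.14, 9.61 and 9.86 in hypoxic cultures. It was 2.00-fold lower (-1.0 ± 0.17, adjusted p = 0.0138), and the groups did not overlap. Ccnb1 was called in 3 of the 6 fits that left out 1 array, with adjusted p from 0.00673 to 0.0874. It lost its call without the normoxic culture 22 (0.0874), the hypoxic culture 22 (0.0544) or the normoxic culture 29 (0.0800). The cytokinesis kinesin Kif20a was at 8.58, 8.31 and 8.80 in normoxia and 7.63, 7.85 and 7.93 in hypoxia (-0.76 ± 0.16, adjusted p = 0.0468). Kif20a was called in 1 of those fits, without normoxic culture 28, with an adjusted p up to 0.214 without hypoxic culture 22. Cdc20, an activator of the anaphase-promoting complex, was at -1.0 ± 0.24 (adjusted p = 0.0992) and the kinase Plk1 at -0.77 ± 0.18 (adjusted p = 0.0717). The count of lower mitosis genes ran from 0 to 5 over the fits that left out 1 array. It was 0 without either culture 22 or normoxic culture 29, 5 without normoxic culture 28, and 1 without either hypoxic culture 28 or hypoxic culture 29. With the culture block 5 passed, the 3 added being Plk1 (adjusted p = 0.0233), Aurka (0.0334), the kinase that matures spindle poles, and Cdc25b (0.0486), the phosphatase that activates Cdk1. Over 15 alternatives the adjusted p of Plk1 ran from 0.0225 to 0.429, that of Aurka from 0.0334 to 1.00 and that of Cdc25b from 0.0486 to 0.582.

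Outside the lists, the rule named 4 further lowered genes with roles in the nucleus or spindle, grouped here after their values were seen. The mitotic protein gene Pimreg was at 9.38, 9.21 and 9.44 in normoxia and 8.18, 8.73 and 8.44 in hypoxia (-0.89 ± 0.14, adjusted p = 0.00799), while its dimmer probe set did not pass (-0.59 ± 0.26, adjusted p = 0.563). The spindle pole protein Aspm fell by 0.66 ± 0.12 on the log2 scale (adjusted p = 0.0188) and the lamina protein Lmnb1 by 0.67 ± 0.11 (adjusted p = 0.0112). The transcription factor E2f5 fell by 0.62 ± 0.11 (adjusted p = 0.0229), and its dimmer probe set was at -0.93 ± 0.22 (adjusted p = 0.0875). Of these, Pimreg was called in 5 of the 6 fits that left out 1 array (up to adjusted p = 0.0552, without normoxic culture 22). Aspm and Lmnb1 were called in 3 (up to 0.112 without hypoxic culture 22, and 0.0700 without normoxic culture 22), both losing their call without either culture 22 or normoxic culture 29. E2f5 was called in 2, those without either culture 28 (up to 0.138, without hypoxic culture 22). Genes of DNA replication had 0 of 33 called and a median of 0.00, and DNA repair 0 of 12 and a median of 0.06. Leaving out hypoxic culture 28 gave medians of 0.16 and 0.12.

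Hypoxic culture 28 stood apart in these lists. It correlated at 0.988 over all probe sets with each of the other hypoxic cultures, which correlated at 0.994 with each other, and the normoxic 16 h cultures at 0.993 or more. The median change of DNA replication genes was 0.10, -0.42 and 0.20 in cultures 22, 28 and 29, and that of DNA repair genes 0.10, -0.28 and 0.12. For cholesterol synthesis the medians were -0.02, 0.55 and -0.04, and for ribosome biogenesis -0.33, -0.62 and -0.26. In this culture the replicative helicase subunit Mcm7 was at 8.0, against 8.88 and 9.03 in the other hypoxic and 8.99 to 9.16 in the normoxic cultures. The sterol-responsive gene Insig1 was at 11.84, against 11.05 and 10.88 in the other hypoxic cultures. What sets this culture apart was not tested.

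**Figure D4:**
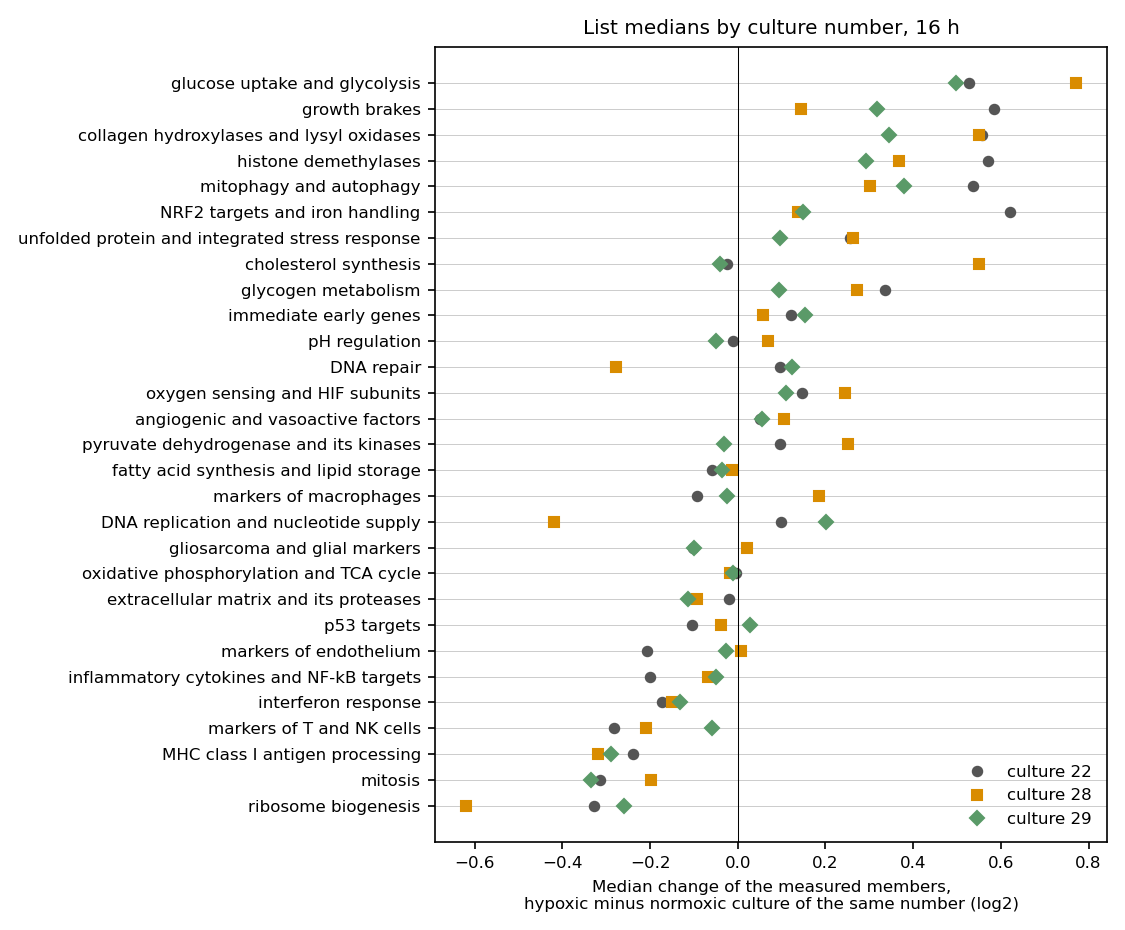
Median change of the measured members of each list (log2, horizontal axis) within culture numbers 22 (grey circles), 28 (orange squares) and 29 (green diamonds). Culture 28 lies apart for DNA replication (-0.42), DNA repair (-0.28), cholesterol synthesis (0.55) and ribosome biogenesis (-0.62).

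Ribosome biogenesis had the lowest median of the 29 lists, -0.37, or -0.22 without hypoxic culture 28, and 22 of 23 measured genes lay below 0. None passed, 4 passed with the culture block, 4 without hypoxic culture 29 and 1 without normoxic culture 28. The 4 with the block were the rRNA-processing factors Wdr46 (-0.74 ± 0.19, adjusted p = 0.0189), Bop1 (-0.67 ± 0.17, adjusted p = 0.0305) and Rrs1 (-0.78 ± 0.24, adjusted p = 0.0415), and Mybbp1a, a nucleolar regulator of transcription (-0.67 ± 0.18, adjusted p = 0.0146). Without the block their adjusted p ran from 0.116 (Wdr46) to 0.272 (Rrs1). Over 15 alternatives it ran from 0.0189 to 0.995 for Wdr46, 0.00971 to 0.527 for Bop1, 0.0337 to 1.00 for Rrs1 and 0.0146 to 1.00 for Mybbp1a. Rrs1 was at 7.84, 7.81 and 8.32 in normoxia and 7.23, 6.58 and 7.83 in hypoxia, so that the groups overlapped although each hypoxic culture was below the normoxic one of its number.

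The largest fall of a called gene was that of Cxcl10, an interferon-induced chemokine that attracts T cells. It was at 9.37, 9.27 and 9.24 in normoxic and 8.21, 7.49 and 8.45 in hypoxic cultures, 2.36-fold lower (-1.24 ± 0.22, adjusted p = 0.0189). Ifit3, an interferon-induced antiviral gene, was at 6.86, 7.10 and 7.15 in normoxia and 6.11, 5.81 and 6.25 in hypoxia (-0.98 ± 0.19, adjusted p = 0.0356). For both genes hypoxic culture 28 was the lowest and no hypoxic culture reached the normoxic range. Cxcl10 was called in 2 of the 6 fits that left out 1 array, those without hypoxic culture 28 or 29 (adjusted p up to 0.104, without normoxic culture 22). Ifit3 was called in 1, that without hypoxic culture 29 (adjusted p up to 0.160, without normoxic culture 29). The ubiquitin-like modifier Isg15 was at -1.04 ± 0.28 (adjusted p = 0.139) and passed with the culture block (adjusted p = 0.0276, and 0.0276 to 1.00 over 15 alternatives). Of 29 measured interferon response genes 2 were lower, 0 higher and 23 lay below 0, with a median of -0.12. The number lower was 0 in 4 of the fits that left out 1 array, those without either culture 22, normoxic culture 28 or normoxic culture 29, and 1 without hypoxic culture 28. Of 10 measured genes of MHC class I antigen processing all lay below 0, with a median of -0.27, and none passed. The median over all measured genes was -0.03, and how many of them lay below 0 is not given here. The immunoproteasome subunit Psmb10 was at 8.16, 8.08 and 8.39 in normoxia and 7.22, 7.0 and 7.73 in hypoxia (-0.89 ± 0.24, adjusted p = 0.159). The monocyte chemokine Ccl2 was at -0.90 ± 0.21 (adjusted p = 0.0803, or 0.0431 with the culture block, in a range of 0.0381 to 1.00).

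Markers of immune cells and endothelium, which a culture of a single line should lack, are given by their levels. The mean level of 12 macrophage markers lay between 5.69 and 5.73 in normoxic and between 5.74 and 5.76 in hypoxic cultures. The leukocyte marker Ptprc and the microglial marker Aif1 reached at most 4.93 and 4.91, while Csf1r and Cd14 reached 7.06 and 7.94. Of 10 T and NK cell markers the mean lay between 5.19 and 5.40 in normoxia and between 5.09 and 5.16 in hypoxia, and the T cell receptor subunit Cd3g reached at most 4.03. All 10 T and NK cell markers lay below 0 (median -0.12), and none was called. For 6 endothelial markers the means were 5.19 to 5.28 and 5.12 to 5.26. None of the macrophage, T and NK cell or endothelial markers was called, and their part in the interferon and chemokine values was not tested. An array has no true zero and its probes differ in brightness, so these levels do not show whether a marker is present or absent. Of the gliosarcoma and glial markers, vimentin (Vim) was at 11.96 to 12.31 and the astrocyte marker Gfap reached at most 5.18, and none of the 12 was called.

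The remaining lowered genes have varied roles. Xanthine dehydrogenase (Xdh), of purine breakdown, was at 9.54, 9.37 and 9.23 in normoxia and 8.46, 8.43 and 8.51 in hypoxia (-0.92 ± 0.11, adjusted p = 0.00100). Pter, a phosphotriesterase-related protein, was at 9.28, 9.19 and 9.15 in normoxia and 8.13, 8.0 and 8.42 in hypoxia (-1.03 ± 0.15, adjusted p = 0.00527). Alg8, a glucosyltransferase of N-glycan assembly, fell by 0.87 ± 0.16 on the log2 scale (adjusted p = 0.0223). The repulsive guidance cue Sema3a fell by 0.78 ± 0.16 (adjusted p = 0.0462), the membrane glycoprotein Gpm6b by 0.58 ± 0.11 (adjusted p = 0.0278) and the RNA-binding protein Rbm43 by 0.74 ± 0.15 (adjusted p = 0.0426). Of the 6 fits that left out 1 array, Alg8 was called in 2 (without hypoxic culture 28 or 29), Sema3a in 1 (without normoxic culture 29), Gpm6b in 1 (without hypoxic culture 28) and Rbm43 in 0. Their adjusted p in these fits reached 0.133 for Alg8, 0.201 for Sema3a, 0.138 for Gpm6b and 0.145 for Rbm43. The last 3 called genes, which the naming rule leaves out, were the tRNA queuosine enzyme gene Qtrt1 (-0.56 ± 0.10), Tnrc18 (-0.49 ± 0.10) and the nuclear receptor Nr2f2 (-0.48 ± 0.09). Qtrt1 was called in 1 of those 6 fits, without hypoxic culture 29, and Tnrc18 and Nr2f2 in 0. Lipid genes had 0 of 11 called in fatty acid synthesis and 0 of 15 in cholesterol synthesis. The elongase Elovl6 was at -0.64 ± 0.18 (adjusted p = 0.192) and passed with the block (adjusted p = 0.0249, and 0.0249 to 1.00 over 15 alternatives), while Lpin1, which makes diacylglycerol, was at 0.89 ± 0.33 (adjusted p = 0.410).

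At 6 h, each measured against its own normoxic cultures, 41 genes were higher (0.286%) and 0 lower. Of these, 39 were also higher at 16 h, which is 33.6% of the 16 h list and 95.1% of the 6 h list. The remaining 2, named after their values were seen, were the lipoprotein receptor Vldlr (1.07 ± 0.13 at 6 h and 0.60 ± 0.13 at 16 h, adjusted p = 0.0610 at 16 h, 0.0458 with the block and 0.0332 to 0.598 over 15 alternatives) and Tgfb3 (0.76 ± 0.13 and 0.14 ± 0.13). Of the 116 genes higher at 16 h, 110 lay above 0 at 6 h and 99 had the larger change at 16 h, with medians of 0.58 at 6 h and 0.88 at 16 h. Of the 39 genes higher at both times, 23 had the larger change at 16 h. The 18 lowered genes all lay below 0 at 6 h and further below at 16 h, with medians of -0.31 and -0.77. Since these genes were chosen by their change at 16 h, a smaller change at 6 h is a description and not a test.

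The test of the difference, the 16 h response minus the 6 h response, called 0 probe sets and 0% of genes (limma, smallest adjusted p = 0.982). It also called 0 with the culture block, and 1194 probe sets had an unadjusted p under 0.05, fewer than the 1368 that 5% of all probe sets makes. The 95% confidence intervals of single genes were wide. Gabarapl1 changed by -0.01 ± 0.18 at 6 h and 1.03 ± 0.18 at 16 h, a difference of 1.03 ± 0.25 (95% interval 0.49 to 1.58, unadjusted p = 0.00117 in limma). Slc2a3 changed by 1.12 ± 0.23 at 6 h, with a difference of 1.09 (0.40 to 1.79), and Ccng2 by 0.94 ± 0.28, with a difference of 1.10 (0.25 to 1.94). Ccnb1 changed by -0.21 ± 0.17 at 6 h, with a difference of -0.79 (-1.31 to -0.27). Xdh changed by -0.32 ± 0.11 at 6 h, with a difference of -0.60 (-0.93 to -0.27). Other leading genes had like values at both times: Pdk1 differed by -0.06 (-0.53 to 0.41), Car9 by -0.06 (-0.64 to 0.52), Bnip3 by -0.22 (-0.56 to 0.12) and Abhd18 by -0.05 (-0.50 to 0.41). None of these differences passed the adjustment, and intervals that span 0 do not show that the responses are equal.

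**Figure D5:**
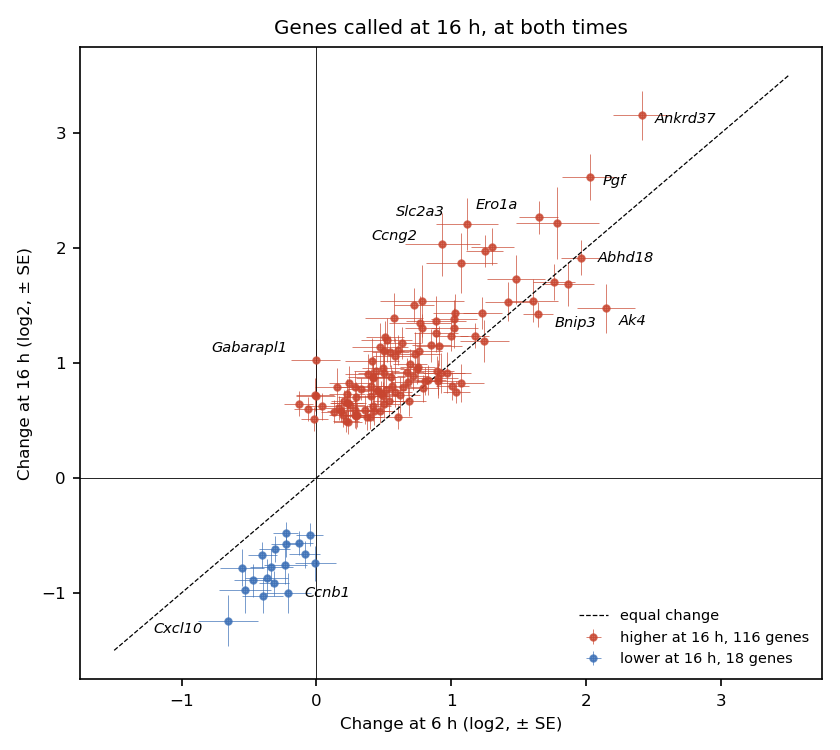
Change at 6 h (horizontal axis) and at 16 h (vertical axis) on the log2 scale, with SE bars, for the 116 genes higher (red) and 18 lower (blue) at 16 h, and a dashed line of equal change. Of the higher genes 99 lie above the line and the 18 lower genes lie below it, while no gene passed the test of the difference.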

How the data were processed

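Amplified RNA was read on Affymetrix Rat Gene 1.0 ST arrays (labels' protocols). The authors deposited RMA-summarised log2 signals per probe set, with RMA and Partek 6.5b named per the submitters' processing notes. Joint normalization of the arrays is not given in any source used. No further normalization was applied.

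Of 27363 probe sets, 15097 carry exactly 1 symbol in the platform annotation, 323 several and 11943 have no entry. The brightest probe set over the 12 culture arrays stood for a gene (499 of 14324 genes had more than 1).

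The 12 culture arrays entered limma 3.58.1 in R 4.3.3 as 4 groups (lmFit, eBayes). Tests were two-sided, and p-values were Benjamini-Hochberg adjusted over every probe set, with a threshold of 0.05. The code was tested on simulated data. Deviations of same-numbered 16 h arrays correlated at 0.130, 0.188 and 0.307, and other numbers at -0.0246 at most. Deviations within a group sum to 0, so positive values for the same number push those for other numbers down. At 6 h, normoxic culture 6 correlated at 0.125 with hypoxic culture 6 and at 0.177 with another hypoxic culture. These values do not settle whether the cultures are pairs. The reported calls come from the fit without pairs, and the culture number served as a block in an alternative fit. The blocked value stands beside results it changes.

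Genes to name were the 15 largest called changes per direction with 1 sign in all 3 culture pairs, up to 6 members of each of 29 lists (458 of 531 genes measured), and 8 genes named in any case, not all of which are printed. Lists and genes were chosen with earlier results of these data known, and genes outside the rule after their values were seen. Alternatives were other normalizations, variance models, array sets and filters, the mean over a gene's probe sets, and leaving out each array.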

Additional observations from a re-analysis of the deposited data

How the results depend on the processing

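The counts of genes higher and lower at 16 h, 116 and 18 (165 and 28 probe sets), stayed within 1.5 times under quantile normalization, median centring, cyclic loess, a trended and robust variance and without the dimmest 25% of probe sets. With all 18 arrays in 6 groups they were 25 and 0 (33 and 0 probe sets), and requiring 1 log2 unit of change they were 45 and 3 (64 and 4). With only the 6 arrays of 16 h, 80 genes were higher and 6 lower (133 and 10 probe sets). With the culture number as a block, 44 genes and 69 probe sets were lower, and 140 genes and 199 probe sets higher. Leaving out 1 array gave 55 to 110 genes higher and 2 to 25 lower (72 to 151 and 2 to 33 probe sets). The test of the difference between both times called 0 probe sets in every alternative run. No called gene named here changed sign in any alternative. Of named genes without a call, Vim changed sign, from -0.04 to 0.030 without the hypoxic culture 29 (adjusted p = 0.987 in limma), and its values without 1 array ran from -0.15 to 0.030. The block changed no call of a named gene other than those given beside their values. The cause of these changes was not tested. Signal over background limits what dim probe sets can show. Of the called probe sets, 0 of the higher and 1 of the lower came from the dimmest 25%, and the reason was not tested.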
